A study of Mus musculus with 6 samples.

Results

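The SLC25 genes encode the mitochondrial solute carriers, and their RNA was measured here by RNA sequencing in the livers of 3 C57BL/6J mice fed a regular diet (RD) and 3 fed a high-cholesterol diet (HCD) for 3 days. Members were taken by name, as every gene called Slc25a followed by a number, and had to reach 60 counts summed over the 6 livers. Of 44 such names in the deposited table, 38 were kept, out of 20673 genes in all. Slc25a20 and Slc25a15 were left out by the definition of the group. Slc25a2, Slc25a18, Slc25a27 and Slc25a31 had 28, 17, 40 and 14 counts in all and fell below the limit. Slc25a41, Slc25a43, Slc25a52 and Slc25a54 were not analysed here. All 38 members passed the filter on low counts, with 124 (Slc25a24) to 47822 (Slc25a39) counts summed over the livers.

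The HCD held cocoa butter, cholesterol and sodium cholate, whereas the RD was a standard chow, so the diets differed in fat and cholate as well as in cholesterol. Both groups were mice of the same inbred strain without a transgene. The labels number the livers of each diet but give no age, sex or litter, so p-values measure the spread between these livers. The comparison asks which hepatic transcripts differ after a short cholesterol-rich diet.

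Solute carriers of this family sit mostly in the inner mitochondrial membrane, which metabolites cannot cross on their own. They are built from repeated pairs of membrane-spanning helices, and most move a substrate between the cytosol and the matrix, often by exchange for another. In hepatocytes they feed the respiratory chain and ATP synthase, export citrate for lipid synthesis, and link the cytosolic and mitochondrial steps of gluconeogenesis and of the urea cycle.

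The RD libraries held between 13771630 and 23129576 counts, and the HCD libraries between 13935491 and 18545549. HCD replicate 1 stood apart in that it had 5032 counts of Xist, which female cells express, against 0 in each other liver. It also had no counts of the 4 Y-linked genes examined. Results for the called genes and for some other members are therefore also given without it. Relative to the mean of the 6 livers, log2 CPM rose with gene length in the 3 RD libraries and fell with it in the 3 HCD libraries, and its part in the results was addressed by 1 alternative with this length trend removed. Albumin, the defining product of hepatocytes, had 969812 to 2099091 counts per liver. Of 9 hepatocyte markers tested, 4 had estimates above 0 and 5 below, 4 did not overlap between the diets and none was called. Their summed CPM (a gene's counts brought to a common library total with edgeR's TMM factors), most of it albumin, ranged from 90580 to 124000 with RD and from 96960 to 137600 with HCD. An estimate above 0 was found for 50.7% of all genes. All 10 Kupffer cell, 10 stellate cell and 10 endothelial markers and all 6 leukocyte markers tested had estimates above 0 without a call. Their summed CPM were 168 to 277 and 230 to 506 for Kupffer, 360 to 394 and 378 to 646 for stellate, 151 to 262 and 225 to 341 for endothelial and 38.5 to 56.4 and 51.9 to 82.6 for leukocyte markers, with RD and HCD respectively. Of 5 cholangiocyte markers tested, 4 had estimates above 0 and none was called. The summed CPM of the 7 listed ran from 37.4 to 91.9 with RD and from 64.9 to 98.1 with HCD. Of the 5 red blood cell markers tested, the 4 globin genes had estimates above 0 and Hba-a1 and Hbb-bs were called. Alas2, the erythroid enzyme of haem synthesis, had an estimate below 0 without a call, at 105, 105 and 154 CPM with RD and 8.24, 97.0 and 119 with HCD, and Epb42, Slc4a1 and Ermap had 5 counts or fewer in every liver. The part of these cells in the results that follow was not tested. In bulk tissue, fewer cells of a type and less RNA per cell cannot be told apart.

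No SLC25 member was called higher with HCD and 2 were called lower, Slc25a45 and Slc25a44. A gene was called when edgeR's quasi-likelihood test gave it an adjusted p under 0.05, where the Benjamini-Hochberg correction covered all 13105 genes in the fit. By that rule 5.26% of the members and 3.27% of all genes were called, and among all genes 1.95% were higher and 1.32% lower. The 38 members split almost evenly, with 18 estimates above 0 and 20 below, and the median of their log2 fold changes, written throughout as HCD over RD, was -0.005 beside 0.007 over all genes tested. Their estimates ran from -1.07 to 0.63, and 7 members exceeded 0.5 in size. At an unadjusted p under 0.05, 1 member was higher and 6 were lower, where 11.1% of all genes were higher, 9.81% lower and 20.9% passed in either direction. The values of the 2 diets did not overlap for 11 members, or 28.9%, a share near the 27.6% among all genes. Of these, 4 were higher with HCD, where 14.0% of all genes were, and 7 lower, where 13.7% were. DESeq2 called 4 members, all lower, where it called 8.54% of all genes in either direction.

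**Figure D1:**
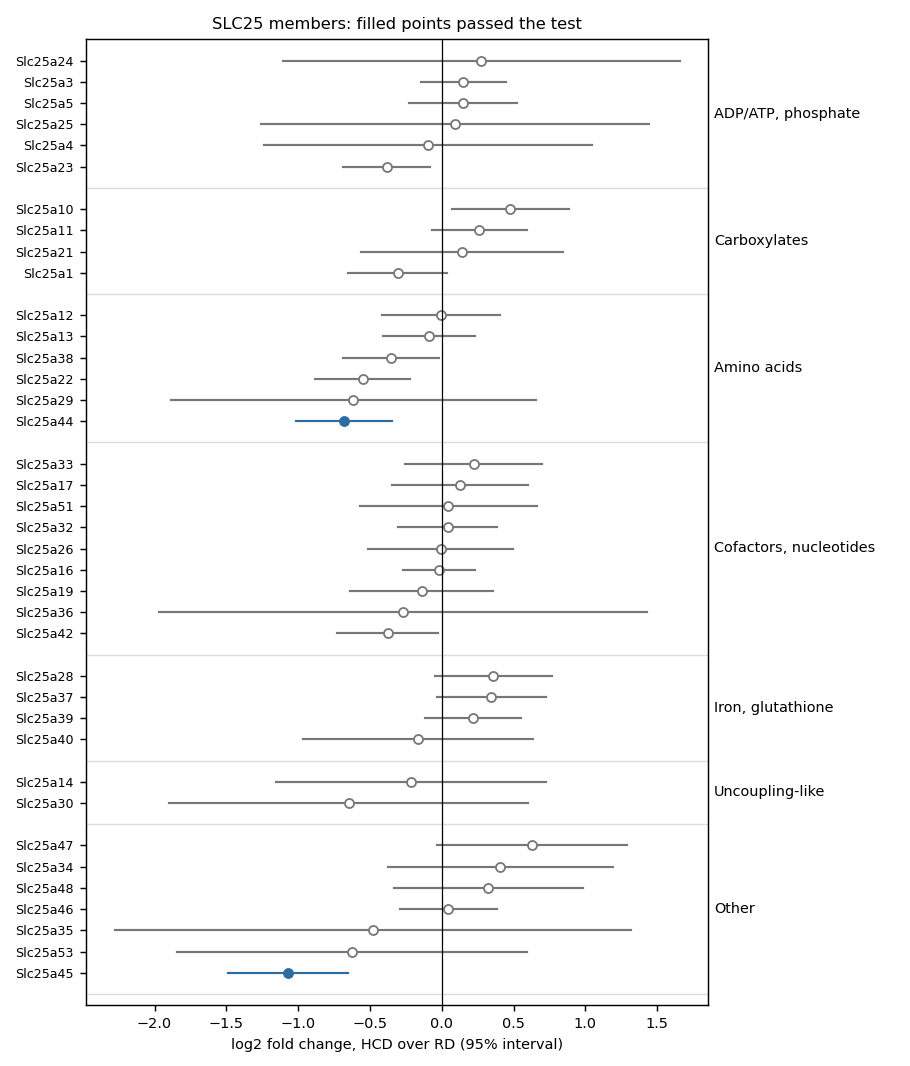
Log2 fold change of HCD over RD for the 38 SLC25 members, grouped by the kind of substrate they carry, with horizontal bars for the 95% interval. The 2 filled points, Slc25a44 at -0.68 and Slc25a45 at -1.07, had an adjusted p under 0.05, and open points did not.

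Slc25a45 showed the largest difference of any member. It encodes an inner-membrane carrier whose RNA is found in liver. Its level was 38.6, 30.4 and 30.0 CPM in the RD livers and 13.4, 15.0 and 19.0 CPM in the HCD livers. Every HCD liver lay below every RD liver, and the lowest RD value was well above the highest HCD value. The log2 fold change was -1.07 (standard error 0.18, 95% interval -1.49 to -0.65), with an edgeR adjusted p of 0.0256. The call held in 10 of 15 alternative analyses, including the one without HCD replicate 1 (adjusted p = 0.0466). Without RD replicate 1, 2 or 3 or HCD replicate 2 in turn, the edgeR adjusted p was 0.117, 0.0876, 0.0509 and 0.0538, with estimates between -1.14 and -0.94.

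The 250 bases upstream of the transcription start are shown for Slc25a45 and for Slc25a47, the members with the lowest and the highest estimate, from RefSeq on the GRCm38.p6 build. Slc25a45 lies on the forward strand with its window at chr19:5877572-5877821, and Slc25a47 on the forward strand with its window at chr12:108850879-108851128. Capitals mark a GC box (GGGCGG) in the first and a CCAAT box, read on the opposite strand, in the second.
Slc25a45: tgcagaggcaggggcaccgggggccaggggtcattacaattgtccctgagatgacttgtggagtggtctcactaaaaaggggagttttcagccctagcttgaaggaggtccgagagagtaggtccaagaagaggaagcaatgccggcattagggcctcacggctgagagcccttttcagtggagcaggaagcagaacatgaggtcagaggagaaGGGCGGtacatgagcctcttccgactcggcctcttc
Slc25a47: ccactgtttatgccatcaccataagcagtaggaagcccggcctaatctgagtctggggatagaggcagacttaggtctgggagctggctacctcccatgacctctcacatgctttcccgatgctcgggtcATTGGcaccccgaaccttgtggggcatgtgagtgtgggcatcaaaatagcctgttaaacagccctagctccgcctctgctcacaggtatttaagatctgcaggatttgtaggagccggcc

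The RefSeq table held 39 such windows for 30 of the members. Searched on both strands, GGGCGG occurred in 28 of them and in 32.7% of the 32851 windows of all genes, and CCAAT in 21 and in 33.8%. TATAAA occurred in 1 member window (Slc25a21) against 12.4% of all windows. The E-box CACGTG occurred in 6 windows against 6.02%, in the genes Slc25a1, Slc25a13, Slc25a14, Slc25a33 and Slc25a36. Neither a direct repeat of the nuclear receptor half-site (DR1) nor the sterol regulatory element was found in a member window, and both were rare in all windows, at 0.0335% and 0.0731%. These are matches of letters and not measured binding sites.

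The 6 members that carry amino acids, a group chosen with earlier results of these data known, all had estimates below 0. Their median log2 fold change was -0.45 and 1 of them was called, where 3.27% of all genes were called and 1.32% called lower. An estimate below 0 was found for 49.3% of all genes. These carriers move aspartate, glutamate, glycine, branched-chain and basic amino acids across the inner membrane. For 5 of the 6 the estimate stayed below 0 in every alternative analysis, while that of Slc25a12 was -0.004 and ranged from -0.11 to 0.11.

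Slc25a44, the carrier of branched-chain amino acids, was the called member of this group. It stood at 75.3, 101.1 and 77.0 CPM in the RD livers and at 53.5, 54.3 and 50.2 CPM in the HCD livers. The HCD livers were close to each other and all below the RD livers. Its log2 fold change was -0.68 (standard error 0.15, 95% interval -1.01 to -0.35), with an edgeR adjusted p of 0.0462. This call held in 4 of 15 alternative analyses and was lost on leaving out any liver, where the estimate ran from -0.76 to -0.53 and the edgeR adjusted p from 0.0785, without HCD replicate 1, to 0.17, without RD replicate 2. It was also lost with library sizes alone, with either limma-trend fit and with the length trend removed, at adjusted p-values of 0.0663, 0.0581, 0.0597 and 0.057.

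Slc25a22, a glutamate carrier, gave 232, 183 and 226 CPM with RD against 136, 150.1 and 152 with HCD. The diets did not overlap, and its log2 fold change was -0.55 (standard error 0.14, edgeR adjusted p = 0.0796). DESeq2 called it, with an adjusted p of 0.0108, and over all alternatives the adjusted p reached 0.29. Slc25a38, the glycine carrier that erythroid cells need for haem synthesis, had 24.8 ± 1.65 CPM with RD and 19.4 ± 2.14 with HCD (SD, n = 3), also without overlap, and was not called. The liver form of the aspartate/glutamate carrier, Slc25a13 (citrin), which serves the malate-aspartate shuttle and the urea cycle, had 187 ± 19.1 CPM with RD and 176 ± 13.9 with HCD (SD, n = 3). Its diets overlapped, and the 95% interval of its log2 fold change was -0.41 to 0.23. The remaining member, Slc25a29, which carries basic amino acids, had a log2 estimate of -0.62 that rested on 271 counts in all and was not called, and it was -0.2 without HCD replicate 3 and -1.01 without HCD replicate 1.

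**Figure D2:**
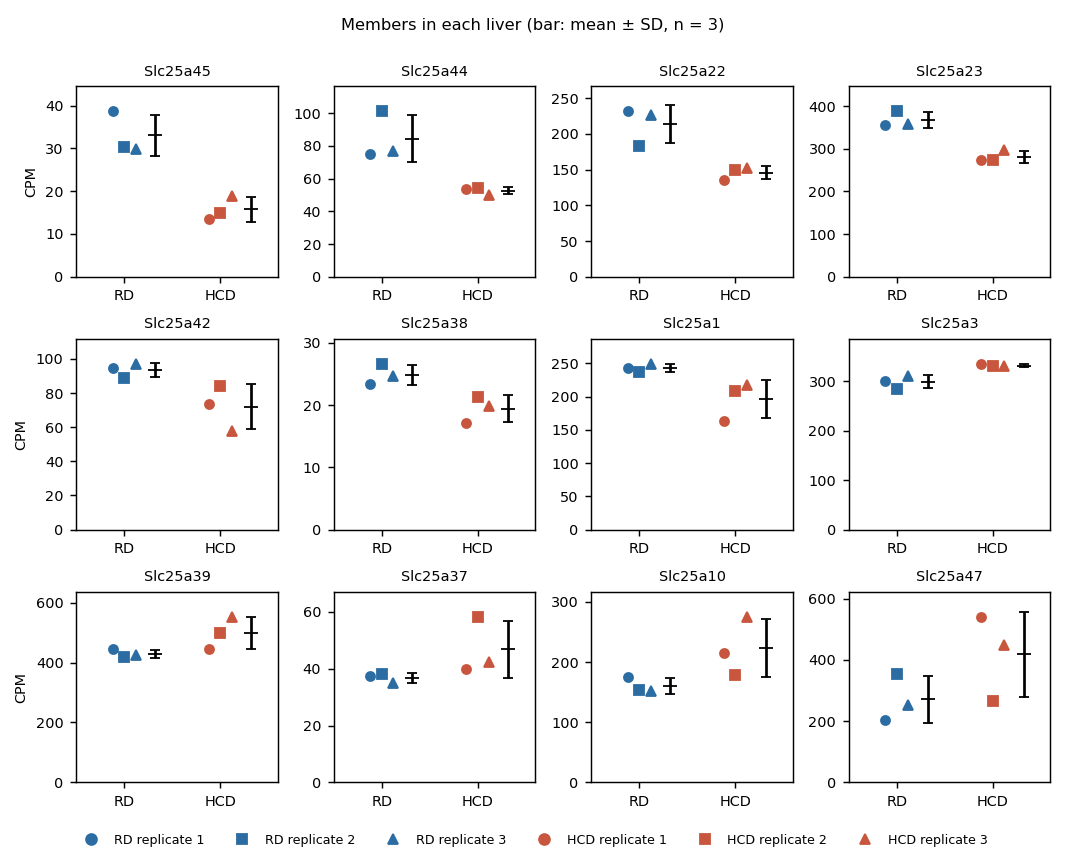
TMM-scaled CPM of 12 SLC25 members in each of the 3 RD and 3 HCD livers, with the mean and SD of each diet beside the points. The HCD livers sat below the RD livers for the first 7 panels (Slc25a45 to Slc25a1) and above them for the next 4 (Slc25a3 to Slc25a10), and the diets overlapped for Slc25a47.

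Members that carry adenine nucleotides and phosphate numbered 6, and none was called. Together they bring ADP and phosphate to ATP synthase and adjust the adenine nucleotide pool of the matrix. Their estimates were above 0 for 4 and below 0 for 2, with a median of 0.12 on the log2 scale. Slc25a5, the main ADP/ATP carrier of liver, was at 367, 311 and 338 CPM with RD and at 411, 307 and 408 with HCD. HCD replicate 2 lay below every RD liver, so the diets overlapped, and the log2 fold change was 0.15 (standard error 0.17, 95% interval -0.23 to 0.53, edgeR adjusted p = 0.651). It was 0.08 without HCD replicate 1 or 3, 0.27 without HCD replicate 2, 0.09 without RD replicate 2 or with library sizes alone, and 0.01 with the length trend removed. The processed pseudogenes Gm5529, Gm5560 and Slc25a5-ps align to its transcript at 94.8% to 98.3% identity and had 310, 21 and 5 counts in the table, so reads can be split between them.

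Slc25a3, which imports the phosphate that ATP synthase uses, was at 301, 284 and 311 CPM with RD and at 334, 329.9 and 330.4 with HCD. The HCD livers were all above the RD livers by a small margin, at a log2 fold change of 0.15 (standard error 0.13), and the gene was not called. The carrier of ATP-Mg and phosphate Slc25a23, which responds to calcium, went the other way. It was at 356, 388 and 358 CPM with RD and at 273, 273 and 298 with HCD. These values did not overlap, and the log2 fold change was -0.38 (standard error 0.13, 95% interval -0.69 to -0.08). The edgeR adjusted p for Slc25a23 was 0.152, and DESeq2 called it at an adjusted p of 0.0498, with the adjusted p reaching 0.409 over all alternatives.

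Slc25a25 is the other ATP-Mg and phosphate carrier with a high level in liver. It had the largest ratio of highest to lowest liver within each diet among the members with 1000 or more counts. It was at 65.9, 238 and 306 CPM with RD and at 368, 193 and 89.2 with HCD. The highest liver exceeded the lowest by 4.65 times within RD and by 4.12 times within HCD, and the log2 fold change between the diets was 0.09 (standard error 0.59). The Slc25a25 estimate turned to -0.52 without HCD replicate 1 and to -0.33 without RD replicate 1, and reached 0.52 without RD replicate 3. Slc25a4, the heart and muscle form of the ADP/ATP carrier, and Slc25a24 rested on 386 and 124 counts in all and had 95% intervals wider than 2 log2 units.

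None of the 4 carboxylate carriers was called, and their estimates were above 0 for 3 and below 0 for 1. Slc25a1, the citrate carrier that supplies cytosolic acetyl-CoA for fatty acid and sterol synthesis, was at 244, 236 and 249 CPM in the RD livers. In the HCD livers it was at 163, 208 and 217 CPM, with HCD replicate 1 the lowest. The HCD livers were all below the RD livers, and the log2 fold change was -0.31 (standard error 0.15, 95% interval -0.65 to 0.04, edgeR adjusted p = 0.286). With each liver left out, the estimate for Slc25a1 ran from -0.39 to -0.19, the latter without HCD replicate 1. Slc25a10, the dicarboxylate carrier that exchanges malate or succinate for phosphate, was the only member higher with HCD at an unadjusted p under 0.05. It was at 176, 154 and 151 CPM with RD and at 215, 179 and 275 with HCD. Its values did not overlap, and the log2 fold change was 0.48 (standard error 0.18, edgeR adjusted p = 0.18), which became 0.29 without HCD replicate 3. The oxoglutarate/malate carrier Slc25a11 had a log2 estimate of 0.26 (standard error 0.14), which was 0.16 without HCD replicate 3 or with the length trend removed, and its diets overlapped.

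Carriers of cofactors and nucleotides numbered 9, with 4 estimates above 0, 5 below, a median of -0.006 on the log2 scale and no call. They bring coenzyme A, thiamine pyrophosphate, S-adenosylmethionine, folate or FAD, NAD and pyrimidine nucleotides into the matrix, except Slc25a17, which serves the peroxisome. Slc25a42, the coenzyme A carrier, was at 94.4, 89.1 and 97.0 CPM with RD and at 73.8, 84.1 and 58.0 with HCD. All HCD livers were lower, at a log2 fold change of -0.38 (standard error 0.15, edgeR adjusted p = 0.209), which was -0.25 without HCD replicate 3 and -0.5 without HCD replicate 2. Slc25a16, which has also been linked to coenzyme A, was at 71.2, 68.3 and 74.6 CPM with RD and at 69.8, 70.0 and 71.8 with HCD. Its log2 fold change was -0.02 (standard error 0.11), and the 95% interval of -0.27 to 0.24 was the narrowest of the family. The sign of the Slc25a16 estimate turned in 4 of the alternatives. The NAD carrier Slc25a51 was at 36.3, 69.3 and 77.2 CPM with RD and at 53.0, 59.8 and 76.1 with HCD, so that both diets spanned much the same range.

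Among the 4 carriers of iron and glutathione, 3 had estimates above 0 that stayed above 0 in every alternative analysis, and none was called. Slc25a39, which with Slc25a40 brings glutathione into the matrix, was at 444, 417 and 424 CPM with RD and at 446, 497 and 552 with HCD. The lowest HCD liver, HCD replicate 1, was only just above the highest RD liver, and the log2 fold change was 0.22 (standard error 0.15, 95% interval -0.11 to 0.55, edgeR adjusted p = 0.426), which became 0.13 without HCD replicate 3 and 0.15 with library sizes alone. Its RNA exceeded that of Slc25a40 by a log2 ratio of 8.61 ± 0.31 in FPKM with RD and 8.99 ± 0.34 with HCD (SD, n = 3). The mitoferrins Slc25a37 and Slc25a28 import iron for haem and iron-sulphur clusters. Slc25a37, the form most used by erythroid cells, had 36.8 ± 1.71 CPM with RD and 46.8 ± 9.92 with HCD (SD, n = 3) without overlap, and HCD replicate 2 alone reached 58.2. Without that liver the Slc25a37 log2 estimate was 0.16 in place of 0.35. Among the red blood cell markers given above, the globins had estimates in the same direction and Alas2 in the opposite one, and the part of red blood cells in the Slc25a37 values was not tested. Slc25a28 had 14.4 ± 1.72 CPM with RD and 18.5 ± 3.01 with HCD (SD, n = 3), and its diets overlapped.

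Slc25a30 and Slc25a14 resemble the uncoupling proteins in sequence, and neither was called. Slc25a30 was at 89.8, 30.1 and 33.4 CPM with RD and at 22.7, 59.5 and 15.9 with HCD. RD replicate 1 was far above the other RD livers, and HCD replicate 2 above the other HCD livers, so the diets overlapped. The log2 fold change of -0.65 (standard error 0.55) became 0.04 without RD replicate 1.

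The remaining 7 members, Slc25a45 among them, either carry other substrates or have no settled one. Slc25a47, a carrier whose RNA is found mainly in liver, had the highest estimate of the family. It was at 203, 356 and 255 CPM with RD and at 541, 267 and 448 with HCD. HCD replicates 1 and 3 were above every RD liver, whereas HCD replicate 2 was among them. The log2 fold change was 0.63 (standard error 0.29, 95% interval -0.04 to 1.29), and the edgeR adjusted p of 0.262 did not pass. Leaving out each liver gave Slc25a47 estimates from 0.4, without HCD replicate 1, to 0.87. Slc25a53, the member with the lowest mean FPKM, was at 1.11, 1.05 and 2.30 CPM with RD and at 0.708, 1.24 and 0.973 with HCD, from 135 counts in all. Its diets overlapped, and the log2 estimate of -0.62 had a standard error of 0.53. It was -0.15 without RD replicate 3 and -0.11 with limma-trend on log2 of FPKM plus 1. Slc25a48, a choline carrier, and Slc25a46, which sits in the outer membrane and acts in mitochondrial dynamics, had log2 estimates of 0.32 and 0.05 with overlapping diets. With each liver left out, that of Slc25a48 ran from 0.06, without HCD replicate 2, to 0.6, without RD replicate 3, and that of Slc25a46 from -0.04 to 0.13. Slc25a34 and Slc25a35 had 359 and 150 counts, and a part of Slc25a35 equal to 31.3% of its length overlaps the opposite-strand gene Rangrf, whose reads cannot be told apart without strand.

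Members with few counts were measured less closely as a group. The 11 members with fewer than 1000 counts had a median standard error of 0.50 on the log2 scale, and none of them was called or separated the diets. The 27 with 1000 or more counts had a median standard error of 0.17, although it was 0.59 for Slc25a25 and 0.55 for Slc25a30, whose livers differed widely within a diet. Leaving out 1 liver changed the sign of the estimate for 16 of the 38 members. All 11 members without overlap between the diets belonged to these 27.

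Levels were compared between genes on the FPKM scale, which divides fragments by gene length and by a library total. The mean over the 6 livers ran from 0.228 FPKM for Slc25a53 to 320.2 FPKM for Slc25a5, with a median of 13.1. Only 4 members exceeded 100 FPKM, namely Slc25a5, Slc25a39 (247.8), Slc25a47 (170.8) and Slc25a1 (149.3). A further 19 were between 10 and 100, 10 between 1 and 10, and 5 under 1. The ranges over the livers overlapped in 35 of 37 pairs of neighbours in this order, the exceptions being Slc25a1 above Slc25a23 and Slc25a13 above Slc25a22. Read within each liver, these 2 pairs kept their order in all 6, as did Slc25a5 above Slc25a39, Slc25a33 above Slc25a37 and Slc25a37 above Slc25a48.

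**Figure D3:**
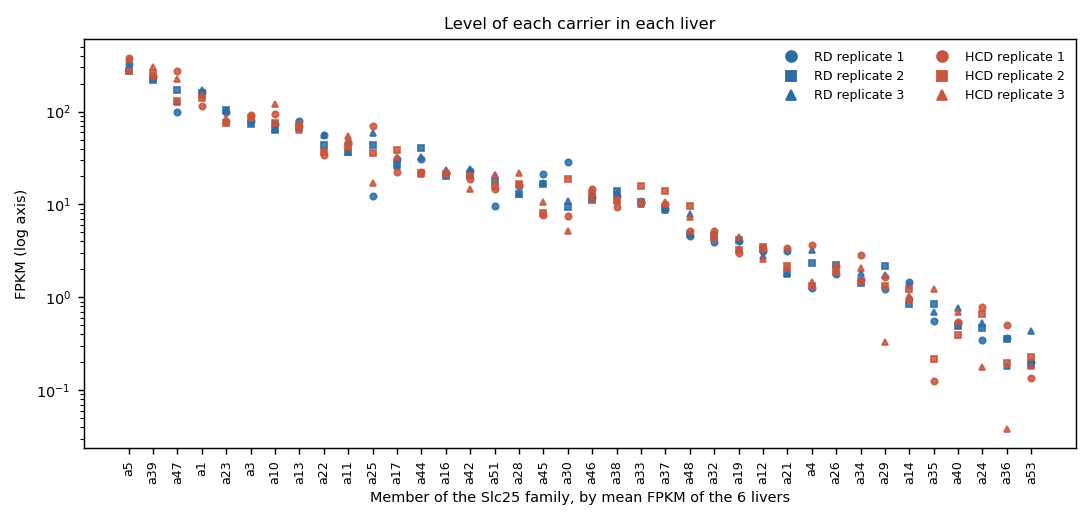
FPKM of the 38 members in each liver on a log axis, ordered by the mean of the 6 livers, with RD in blue and HCD in red. The order runs from Slc25a5 at a mean of 320.2 FPKM to Slc25a53 at 0.228, and livers of a diet spread widely for Slc25a25 and Slc25a30.

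The family's summed FPKM was 1518, 1489 and 1554 in the RD livers and 1701, 1467 and 1736 in the HCD livers. HCD replicate 2 was below every RD liver and the other HCD livers were above, and the ratio of the means was 1.08. The sum of FPKM over the whole table was not equal between libraries, from 613900 to 657800 with RD and from 635300 to 892700 with HCD. When each liver was brought to the same whole-table sum, the family's ratio was 0.93, so its direction turned with the scaling. The 6 most abundant members held 66.1 ± 0.59% of the family's FPKM with RD and 68.3 ± 2.59% with HCD (SD, n = 3). Slc25a5 alone held 19.8 ± 1.6% and 20.7 ± 2%, and Slc25a47 8.74 ± 2.53% and 12.6 ± 3.64%.

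Carriers with like substrates were then compared within each liver as a log2 ratio of their FPKM, for 8 pairs. Only for Slc25a16 and Slc25a42 did the ratio separate the diets. It was -0.09, -0.06 and -0.06 in the RD livers and 0.24, 0.06 and 0.63 in the HCD livers, a difference of 0.38 on the log2 scale. The difference was 0.22 without HCD replicate 3 and 0.5 without HCD replicate 2. The exact two-sided permutation test gave p = 0.1, the smallest that 3 livers against 3 allow, and 0.8 after Benjamini-Hochberg adjustment over the 8 pairs. The other pairs overlapped, with exact permutation p-values between 0.2 and 1. For the ADP/ATP carriers Slc25a4 and Slc25a5 the log2 ratio was -7.15 ± 0.77 with RD and -7.46 ± 0.69 with HCD (SD, n = 3). For the aspartate/glutamate carriers Slc25a12 and Slc25a13 it was -4.54 ± 0.19 and -4.46 ± 0.13 (SD, n = 3). In each of these pairs the form long known from liver dominated in all 6 livers.

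**Figure D4:**
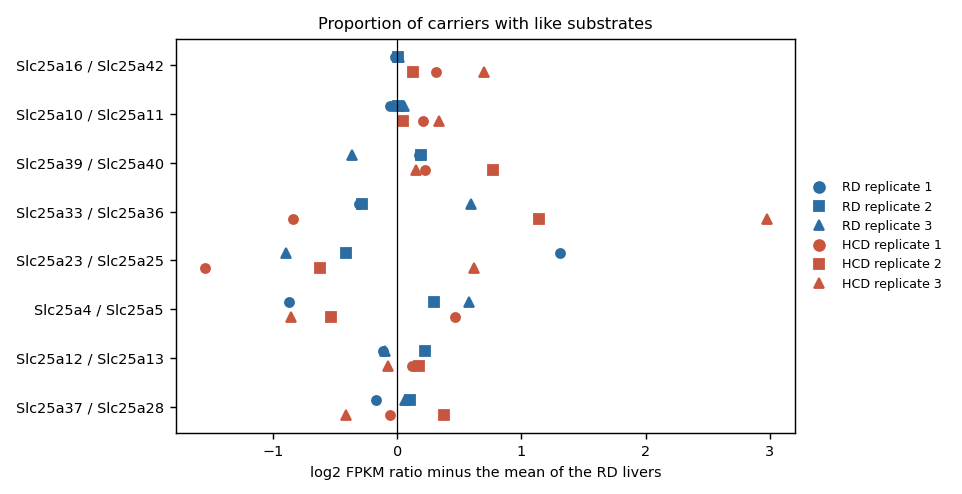
Log2 FPKM ratio of 8 pairs of carriers in each liver, less the mean of the RD livers for that pair. The ratio of Slc25a16 to Slc25a42 lay above 0 in all HCD livers, by 0.38 on average, and the diets overlapped in the other pairs.

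Genes around the carriers were read from the same fit. Of 3 tested carriers that belong to the family but have other names, Ucp2 was called higher, where 1.95% of all genes were. Ucp2, an uncoupling-protein homologue that immune cells also express, was at 17.4, 19.5 and 18.5 CPM with RD and at 34.0, 26.2 and 31.0 with HCD. The diets were well apart, and the log2 fold change was 0.72 (standard error 0.15, edgeR adjusted p = 0.0432). The Kupffer and leukocyte markers given above had estimates in the same direction, and their part in the Ucp2 values was not tested. The Ucp2 call was lost without RD replicate 1, 2 or 3 or HCD replicate 1 or 3 in turn, with estimates from 0.63 to 0.76, and it held in 6 of 15 alternatives. Mtch2, an insertase of the outer membrane, and Mtch1 had log2 estimates of 0.35 and 0.12 without a call.

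Carrier precursors are made in the cytosol, bound by chaperones, passed through the outer-membrane translocase and inserted by the small Tim proteins and the TIM22 complex. Of 19 such genes tested, only Hspa8 was called, and it was lower, where 3.27% of all genes were called and 1.32% called lower. Hspa8 encodes the constitutive cytosolic chaperone Hsc70. It was at 2033, 1812 and 1379 CPM with RD and at 782, 929.8 and 764 with HCD, and the log2 fold change was -1.08 (standard error 0.19, edgeR adjusted p = 0.0289). The HCD livers were all far below the RD livers. The chaperones Hsp90aa1 and Hsp90ab1 had log2 estimates of -0.99 and -0.47 without overlap between the diets and edgeR adjusted p-values of 0.0952 and 0.188. Hsp90aa1 was called with DESeq2, without the filter on low counts and without HCD replicate 1. None of the 16 translocase and TIM22-complex genes was called, 11 had estimates above 0, and the range was -0.41 to 0.47. Without RD replicate 1, RD replicate 2 or HCD replicate 3 the Hspa8 call was lost, with estimates from -1.05 to -0.95.

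Of 24 tested transport genes outside the family, 2 were called (8.33%), both higher with HCD. Among all genes, 3.27% were called and 1.95% called higher. Mpc1, a subunit of the mitochondrial pyruvate carrier, was at 23.1, 21.6 and 21.7 CPM with RD and at 67.9, 37.2 and 64.8 with HCD. Its log2 fold change was 1.36 (standard error 0.22, edgeR adjusted p = 0.0228). Its partner subunit Mpc2 had a log2 estimate of 0.84 (standard error 0.19) without overlap between the diets, and its edgeR adjusted p of 0.054 did not pass, while it was called with DESeq2, without the filter on low counts and with the length trend removed. Mcu, the pore of the calcium uniporter, was at 15.9, 18.1 and 19.9 CPM with RD and at 43.6, 31.1 and 41.9 with HCD, and the log2 fold change was 1.12 (standard error 0.17, edgeR adjusted p = 0.0201). Both genes were higher in every HCD liver than in any RD liver. Leaving out RD replicate 1, RD replicate 2 or HCD replicate 3 ended both calls, and RD replicate 3 that of Mpc1, with estimates from 1.03 to 1.39. Without HCD replicate 1, the calls of Hspa8, Mpc1 and Mcu held, at edgeR adjusted p-values of 0.0469, 0.0406 and 0.0364. The porins Vdac1, Vdac2 and Vdac3, through which metabolites cross the outer membrane, had log2 estimates of 0.14, 0.06 and 0.31 and were not called.

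**Figure D5:**
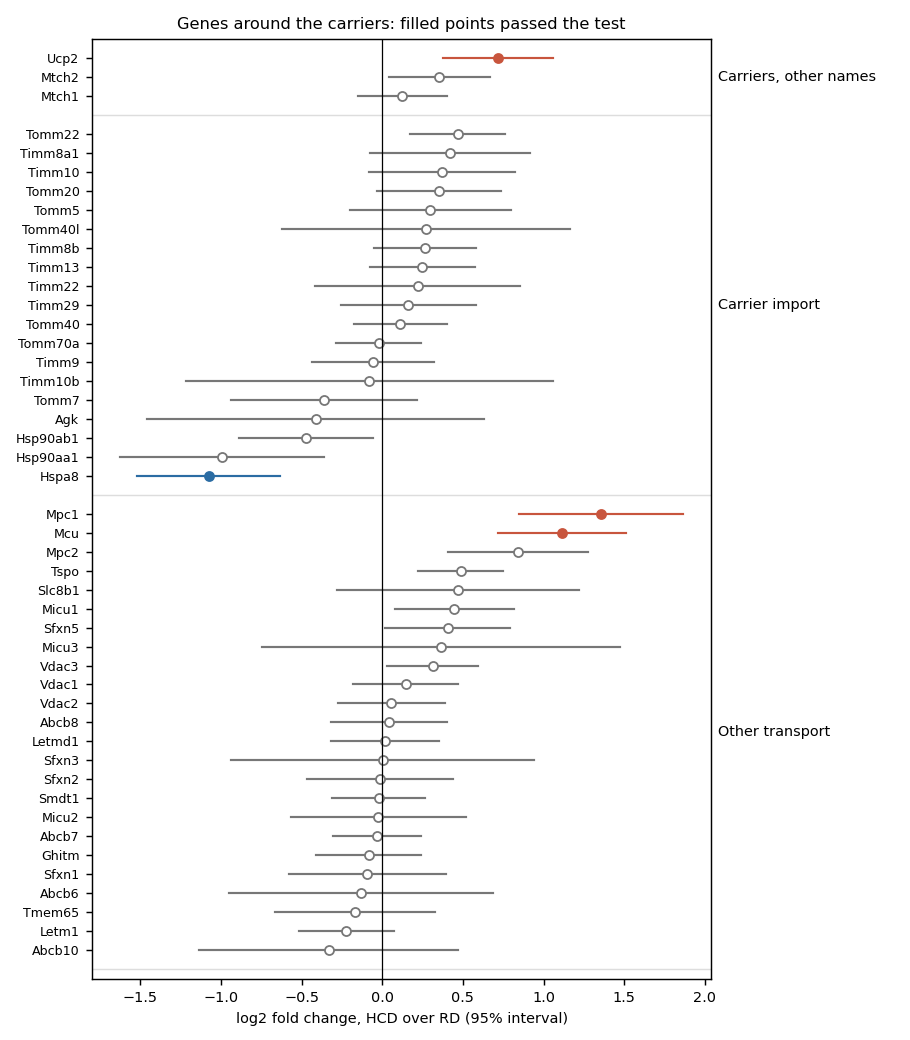
Log2 fold change of HCD over RD with its 95% interval for carriers with other names, genes of carrier import and other mitochondrial transport genes. Filled points had an adjusted p under 0.05, namely Ucp2 at 0.72, Hspa8 at -1.08, Mpc1 at 1.36 and Mcu at 1.12.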

How the data were processed

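Liver RNA of 6 C57BL/6J mice was sequenced, and diet and replicate number were taken from the sample labels. The authors deposited raw read counts per gene as whole numbers, with no scaling. FPKM, fragments divided by gene length and library total, were deposited by the authors as well, and the total behind them, which is not stated, equalled 0.59 to 0.726 of each library's counts. The authors deposited log2 fold changes, p-values and adjusted p-values of their own comparison, which were not used. The submitters' notes name STAR, HTSeq, DESeq2, edgeR and GRCm39. No source used here gives the strand setting or the library kit. Gene lengths matched GENCODE M21 (GRCm38) for most genes, so the build of the counts was not settled and coordinates are given only for RefSeq promoter windows. RD library names begin with another word than HCD names, and whether the libraries were made together is not given, so a batch between the diets cannot be told apart from diet.

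Counts were filtered with filterByExpr by diet (13105 of 20673 genes, over 99.4% of the counts of each library), scaled with TMM (factors 0.886 to 1.07) and tested with the quasi-likelihood F test in edgeR 4.0.16 under R 4.3.3, without covariates, adjusted by Benjamini-Hochberg. The test was also run on counts simulated with a smaller spread between livers than in these data. That run cannot show how the test performed here. Standard errors were derived from each log2 fold change and its F statistic in that fit, and 95% intervals from these and the t distribution. Precision was set by the spread between livers, with a common biological coefficient of variation of 27.8%. FPKM served for levels and ratios. Pair ratios were tested with an exact two-sided permutation test. Copies of member transcripts were sought with minimap2 2.31, keeping alignments of 200 or more bases and 90% or more identity. Python 3.11.15 and matplotlib 3.10.9 were used for tables and figures.

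The members, role groups and other lists were chosen with earlier results of these data known, and the promoter motifs after the values were seen. Values in every liver were given for called members, the 5 with the highest mean FPKM, the members of a pair whose ratio separated the diets and the 3 largest differences not called. Other members were named as examples of their group after their values were seen. Alternatives were DESeq2 1.42.0, RLE factors, library sizes alone, no filter, a mean of 50 counts, limma-trend (limma 3.58.1) on log2 of FPKM plus 1 or 0.1, removal of a trend with gene length, the replicate number as a block, and each liver left out.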

Additional observations from a re-analysis of the deposited data

How the results depend on the processing

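The count of SLC25 members called was 2, both lower, and no alternative called a member higher except an unadjusted p under 0.05, which passed 7 members with 1 higher. It was 4 with DESeq2, 1 with library sizes alone, either limma-trend fit or the length trend removed, 0 at an adjusted p under 0.01, and 0 to 1 with each liver left out (1 without HCD replicate 1 or 3, otherwise 0). The count over all genes, 428, became 1118 with DESeq2 (8.54% of those it tested), 649 without the filter, 251 with the length trend removed, 2739 at an unadjusted p under 0.05, 40 at an adjusted p under 0.01, and 39 to 387 with each liver left out (39, 57 and 146 without RD replicate 1, 2 or 3, and 104 without HCD replicate 3). Carrier import genes called went from 1 to 2 with DESeq2 and without the filter, and to 0 to 2 with each liver left out. Other transport genes called went from 2 to 4 with DESeq2, to 3 without the filter, at a mean of 50 counts or with the length trend removed, and to 0 to 2 with each liver left out. The median log2 fold change of the members, -0.005, was -0.063 with library sizes alone, 0.059 at a mean of at least 50 counts, which kept 32 of the members, and 0.044 with the length trend removed, and ran from -0.041 to 0.073 with each liver left out. Relative to the mean of the 6 livers, a gene's log2 CPM had a slope of 0.042 to 0.067 per doubling of gene length in RD libraries and of -0.088 to -0.012 in HCD libraries. The members' median length was 3773.5 bases against 4236 for all genes. Summed FPKM had a ratio of 1.08, and of 0.93 after rescaling to a common sum. The estimate for Slc25a30 ran from -1.4 to 0.04 with each liver left out, above 0 without RD replicate 1. That of Slc25a16 turned to 0.0062 and 0.0065 with limma-trend, 0.039 with the length trend removed and 0.015 without RD replicate 3, in a leave-one-out range of -0.048 to 0.015. The Slc25a23 to Slc25a25 ratio difference ran from -1.09 to 0.14, above 0 without RD replicate 1. That of Slc25a37 to Slc25a28 turned to 0.022, 0.0008 and 0.16 without RD replicate 2, RD replicate 3 or HCD replicate 3, in a range of -0.24 to 0.16. The cause of these turns was not tested. With the replicate number as a block, 136 genes were called and 0 members, 0 import genes and 0 other transport genes. Same-numbered livers did not deviate together (correlations of -0.076, 0.088 and -0.041 for numbers 1, 2 and 3), so the number was not taken as a pairing.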
